A study of Mus musculus with 4 samples.

Results

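MHC class I antigen presentation was examined in mouse embryonic fibroblasts (MEFs) through 10 genes: the heavy chains H2-K1, H2-D1 and H2-T23, the light chain B2m, the peptide transporter genes Tap1 and Tap2, Tapbp, and the immunoproteasome genes Psmb8, Psmb9 and Psmb10. The members were all non-control probes of the array whose gene name was one of these symbols. The rule found all 10 genes, read by 18 probes on 36 features, among 41174 probes, 43379 features and 27745 gene names in all. The measurements came from 4 2-colour Agilent whole mouse genome arrays of C57BL/6J MEFs labelled Lats2-/- (KO) or Lats2+/+ (WT). The Lats2 kinase acts in Hippo signalling, which limits YAP and TAZ activity in crowded cells. In each genotype, a culture sampled subconfluent after 48 hours (low density) was hybridised against a culture sampled after 3 to 5 days (high density), so density and days in culture changed together. The second array of each genotype had the Cy3 and Cy5 dyes exchanged. Such a pair was counted as 1 replicate, since nothing in the sources used here names separate cultures. No difference within a genotype or a density therefore has a replicate check, and the array-to-array spread given below is technical.

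Class I molecules carry peptides from inside the cell to its surface, where CD8+ T cells read them. The proteasome cuts the proteins, the Tap1-Tap2 transporter moves the peptides into the endoplasmic reticulum, and tapasin, the product of Tapbp, holds the empty heavy chain and B2m at the transporter until a peptide binds. Interferons raise most of these genes together and replace the standard catalytic subunits of the proteasome by Psmb8, Psmb9 and Psmb10. Fibroblasts present antigen at a modest resting level and respond to interferon.

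The starts of these genes are shown because Psmb9 and Tap1 begin back to back and Psmb8 lies beside them, while B2m lies on another chromosome and H2-K1 farther along the same one. The RefSeq table (GRCm38.p6) held the promoter of 9 of the 10 members, all but Tap2. The first stretch is the whole interval between the starts of Psmb9 and Tap1, 225 bases at chr17:34187331-34187555 on the plus strand. The others are the 250 bases before the start of Psmb8 (chr17:34197945-34198194, plus strand), B2m (chr2:122147437-122147686, plus strand) and H2-K1 (chr17:34000348-34000597, minus strand). Capitals mark matches on either strand to 4 motifs: the interferon-stimulated response element (GAAA, any 2 bases, GAAA), the gamma-activated site (TTC, any 3 bases, GAA), the Y box (CCAAT) and the NF-kappaB consensus.
Psmb9 and Tap1: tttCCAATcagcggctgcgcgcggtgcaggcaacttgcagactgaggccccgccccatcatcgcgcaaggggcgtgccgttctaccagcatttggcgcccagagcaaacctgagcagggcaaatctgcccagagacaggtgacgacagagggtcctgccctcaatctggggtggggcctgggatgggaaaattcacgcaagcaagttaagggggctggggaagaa
Psmb8: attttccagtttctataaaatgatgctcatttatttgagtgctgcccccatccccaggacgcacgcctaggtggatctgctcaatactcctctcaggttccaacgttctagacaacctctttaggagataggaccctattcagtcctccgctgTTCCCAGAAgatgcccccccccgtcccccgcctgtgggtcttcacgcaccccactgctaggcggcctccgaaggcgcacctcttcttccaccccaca
B2m: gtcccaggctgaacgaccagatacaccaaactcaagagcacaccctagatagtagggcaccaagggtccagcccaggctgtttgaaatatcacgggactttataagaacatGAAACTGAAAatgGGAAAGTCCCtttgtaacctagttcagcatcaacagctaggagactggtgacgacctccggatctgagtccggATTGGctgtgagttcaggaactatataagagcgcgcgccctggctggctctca
H2-K1: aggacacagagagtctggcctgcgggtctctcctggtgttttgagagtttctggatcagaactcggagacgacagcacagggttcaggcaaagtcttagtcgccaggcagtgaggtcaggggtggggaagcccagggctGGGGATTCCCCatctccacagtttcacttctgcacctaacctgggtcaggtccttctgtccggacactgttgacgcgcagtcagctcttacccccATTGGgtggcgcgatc

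In B2m the capitals are, in order, the response element, the NF-kappaB match and a Y box on the opposite strand, and no match overlapped another. In Psmb8 they are a gamma-activated site, and in H2-K1 the NF-kappaB match and a Y box on the opposite strand. Between Psmb9 and Tap1 only a Y box was found. Over the 9 members with a window, the response element was found in 2 (B2m and H2-T23), the gamma-activated site in 1 (Psmb8), the NF-kappaB consensus in 3 (H2-K1, H2-D1 and B2m) and the Y box in 7. Among all 32851 promoter windows of the table, these motifs were found in 2.98%, 7.02%, 3.9% and 33.8%, respectively. A match is a description of the letters only.

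Depending on array and dye, 52.8% to 67.7% of the features stood well above background. An outlier flag was carried by 107 to 224 features an array, and none was saturated. The SD of the density log2 ratio between the swapped arrays was 0.141 over all tested probes in WT and 0.205 in KO. Both WT arrays shared 1 slide and scan and the KO arrays lay on others, so that slide and genotype cannot be told apart. The Lats2 probes went against the label in part. One of them, A_52_P425064, read 8.35 and 8.55 in WT and 7.8 and 7.84 in KO at low density, and 7.89 on both WT arrays against 6.51 and 6.76 in KO at high density. At low density, the other 3 of 4 Lats2 probes were higher on the arrays labelled KO, by 1.19 to 1.39 on the log2 scale, and this probe was lower (-0.63). At high density the same 3 were higher by 0.91 to 1.49 and this probe was at -1.26. The deleted stretch is not given in the sources used here, so WT and KO below mean the arrays so labelled. All 9 fibroblast markers were well above background in every group, but the levels of some moved. At low density Pdgfra read 6.59 in WT and 11.05 in KO. The log2 ratio of high to low density was -1.6 in WT and 1.03 in KO for Fn1, and -0.51 and -0.54 for Vim.

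By their brightest tested probes, the log2 ratios of high to low density lay above 0 for all 10 class I genes in WT, although the other H2-D1 probe lay below it. The median over the genes was 0.7, against 0.01 over all tested probes. In KO, 5 genes lay above and 5 below 0, with a median of 0.12. A gene is called when the mean of both arrays reached 2-fold in either direction (a log2 ratio of 1) and neither array contradicted the direction. By this rule Psmb8 and Psmb9 were called higher in WT, H2-T23 was called higher in KO, and no member was called lower in either genotype. With the arrays centred on their medians, H2-T23 came to 0.76 in KO and was not called. Tap1, Tap2, Psmb8 and Psmb9 were not well above background in WT at low density and were tested in WT only through the high density side, which fixed their direction. Without them, 6 genes remained in WT, with a median of 0.47 and 0 called. Of all tested probes, 7.61% were called higher and 5.72% lower in WT, and 5.9% higher and 3.73% lower in KO. The log2 signals of the members on each array are plotted by group.

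**Figure D1:**
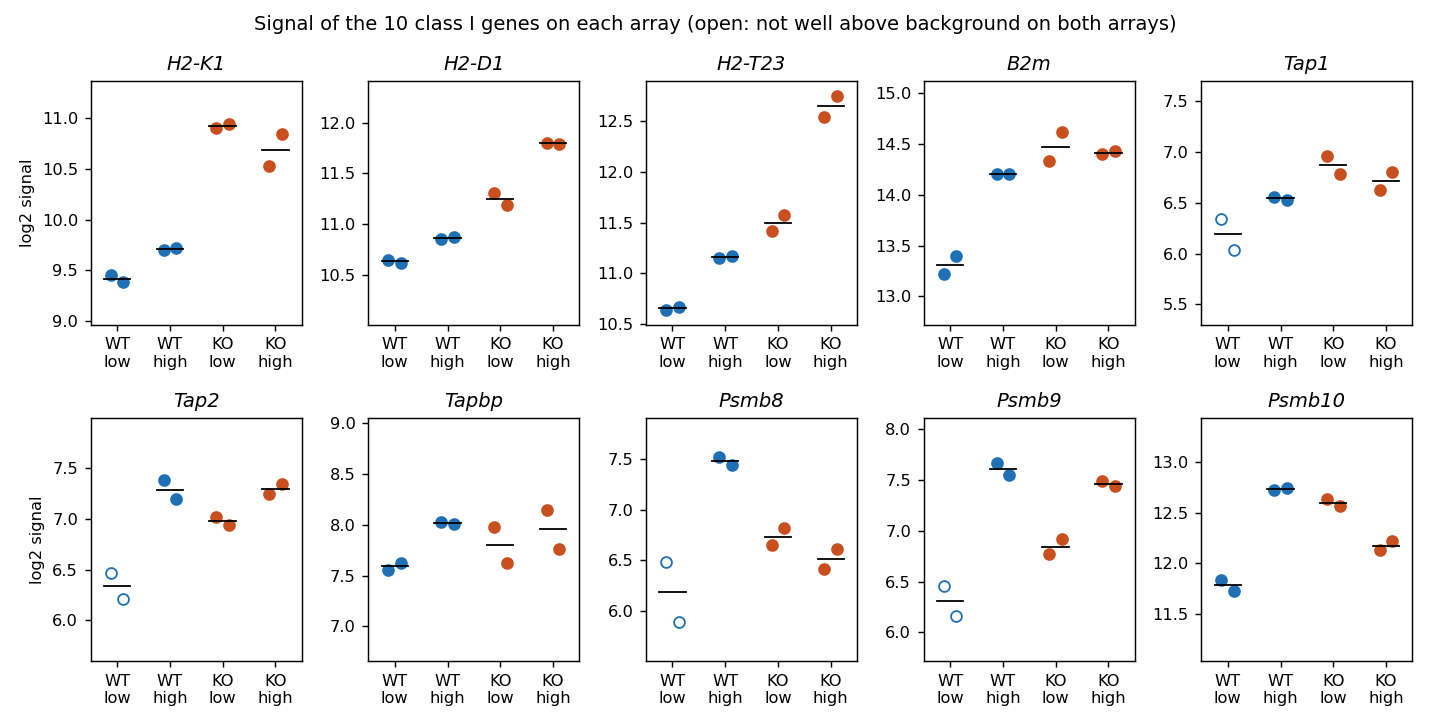
Log2 signal (background corrected and normalized) of the brightest probe tested in WT, for each of the 10 genes, in the 4 groups of genotype and density. Points are the 2 arrays of a dye swap, lines their mean, open points groups in which neither array was well above background; Tap1, Tap2, Psmb8 and Psmb9 are open in WT at low density, and each panel has its own axis.

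The heavy chains bind the peptide and differ in what they present. H2-K1 and H2-D1 are the classical molecules of this strain, and H2-T23 encodes Qa-1, a non-classical molecule read by receptors of natural killer cells. Class I heavy chains are close in sequence to one another, so the probes may read more than 1 gene, and their values are uncertain to that extent.

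H2-T23 (NM_010398, mm8 chr17:35638446-35638682, minus strand) gave log2 signals of 10.64 and 10.67 in WT at low density and 11.15 and 11.17 at high density. In KO it gave 11.42 and 11.58 at low density and 12.54 and 12.75 at high density. The 4 groups did not overlap and ran in the order WT low, WT high, KO low, KO high. Each group, here and below, is 2 technical readings of 1 sample. The share of all probes without such overlap is not given here, so it has no comparison. The density effect was 0.51 ± 0.01 in WT and 1.14 ± 0.03 in KO (mean log2 ratio ± SD of the 2 arrays, as in all values below), and H2-T23 thus had the larger effect in KO.

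The brightest H2-K1 probe (A_51_P198434, NM_001001892, mm8 chr17:33606564-33606623, minus strand) read 9.45 and 9.39 in WT at low density and 9.7 and 9.72 at high density. In KO it read 10.9 and 10.94 at low density and 10.53 and 10.84 at high density. Here the order was WT low, WT high, KO high, KO low, with no overlap between neighbours, although the KO groups nearly met (10.84 and 10.9). The density effect was 0.29 ± 0.06 in WT and -0.23 ± 0.19 in KO. The probes of H2-K1 disagreed: A_51_P190499 and A_52_P50496 also lay above 0 in WT (0.22 and 0.06) and below 0 in KO (-0.32 and -0.4), whereas A_52_P474242, which lies next to A_52_P50496, was above 0 in both (0.32 and 0.79).

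H2-D1 was read by 2 probes whose density ratios had opposite signs. The brighter, A_52_P313279 (NM_010380, mm8 chr17:34874240-34874299, plus strand), read 10.65 and 10.62 in WT at low density and 10.85 and 10.87 at high density, then 11.31 and 11.19 in KO at low density and 11.8 and 11.79 at high density. Its groups did not overlap. Its density effect was 0.23 ± 0.04 in WT and 0.54 ± 0.08 in KO. The other probe, A_51_P496996, gave -0.12 ± 0.1 in WT and -0.51 ± 0.09 in KO. No direction is given for H2-D1 with density.

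B2m encodes the light chain common to all class I molecules. Its brightest probe (A_51_P129012, NM_009735, mm8 chr2:121844106-121844165, plus strand) read 13.22 and 13.4 in WT at low density and 14.2 and 14.2 at high density. In KO it read 14.33 and 14.62 at low density and 14.4 and 14.43 at high density. WT at low density stood below the other groups, and the KO groups overlapped each other. The density effect was 0.89 ± 0.13 in WT and -0.06 ± 0.18 in KO, where the arrays had opposite signs. A second probe near it, A_51_P129006, printed on 10 features, gave 0.74 ± 0.09 and -0.34 ± 0.48. The third, A_52_P105594, lies upstream of them (mm8 chr2:121840304-121840363) and is annotated to another transcript (AK086184). It differed from them, with 0.33 ± 0.19 in WT and 0.73 ± 0.18 in KO.

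Tap1 and Tap2 encode the subunits of the peptide transporter. Tap2 (A_52_P86176, NM_011530) read 6.47 and 6.21 in WT at low density, where neither array was well above background, and 7.38 and 7.19 at high density. It read 7.02 and 6.94 in KO at low density and 7.24 and 7.34 at high density. WT at low density was lowest and KO at low density next, and WT and KO at high density overlapped each other. The signal in WT was at least 1.92-fold higher at high density, a bound set by the dim side, and the KO ratio was 0.31 ± 0.13. This bound and those below rest on the mean of both arrays and leave out their spread. Tap1 (A_51_P100327, NM_013683) was likewise not well above background in WT at low density (6.34 and 6.04) and read 6.56 and 6.53 at high density, at least 1.28-fold higher. In KO, Tap1 read 6.96 and 6.78 at low density and 6.63 and 6.8 at high density, and these groups overlapped.

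Tapbp had a bright probe, A_51_P304500 (NM_001025313, mm8 chr17:33539531-33539590, plus strand), that carried an outlier flag on WT replicate 2 and was left out there. On WT replicate 1 it read 10.81 at low and 12.53 at high density, a log2 ratio of 1.71. In KO it read 11.68 and 11.65 at low density and 12.54 and 12.62 at high density, a ratio of 0.91 ± 0.07. The other probe, A_52_P684830 (NM_009318, mm8 chr17:33536605-33536664, plus strand), gave 0.43 ± 0.06 in WT and 0.16 ± 0.03 in KO. Both Tapbp probes thus lay above 0 on every array measured, and the KO value of the gene comes from the first probe and the WT value from the second.

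Psmb8, which replaces Psmb5 in the immunoproteasome, was read by 2 neighbouring probes with nearly the same values. The first, A_51_P345366 (NM_010724), read 6.48 and 5.89 in WT at low density, not well above background on either array, and 7.52 and 7.44 at high density. In KO it read 6.65 and 6.82 at low density and 6.42 and 6.61 at high density. WT at high density was above all other groups, and the KO groups did not overlap. In WT, Psmb8 was at least 2.35-fold higher at high density by this probe and at least 2.33-fold by A_51_P345367. The KO ratio was -0.22 by both probes, with SDs of 0.01 and 0.08.

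Psmb9, the counterpart of Psmb6, read 6.46 and 6.16 in WT at low density, not well above background, and 7.67 and 7.55 at high density. It read 6.77 and 6.92 in KO at low density and 7.49 and 7.44 at high density. The density effect had the same sign in both genotypes, at least 2.46-fold in WT and 0.62 ± 0.14 on the log2 scale in KO. Psmb10, the counterpart of Psmb7, lies outside the complex (A_52_P570266, NM_013640, mm8 chr8:108824906-108824965, minus strand). It was bright in every group, at 11.84 and 11.73 in WT at low density, 12.72 and 12.74 in WT at high density, 12.63 and 12.57 in KO at low density and 12.13 and 12.22 in KO at high density. The 2 technical readings of a group did not overlap those of another, in the order WT low, KO high, KO low, WT high. The density effect was 0.94 ± 0.09 in WT and -0.42 ± 0.1 in KO. The standard subunits showed no such pattern. Psmb5 gave -0.37 in WT and -0.36 in KO, Psmb6 0.04 and 0.02, and Psmb7 -0.3 and -0.32.

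**Figure D2:**
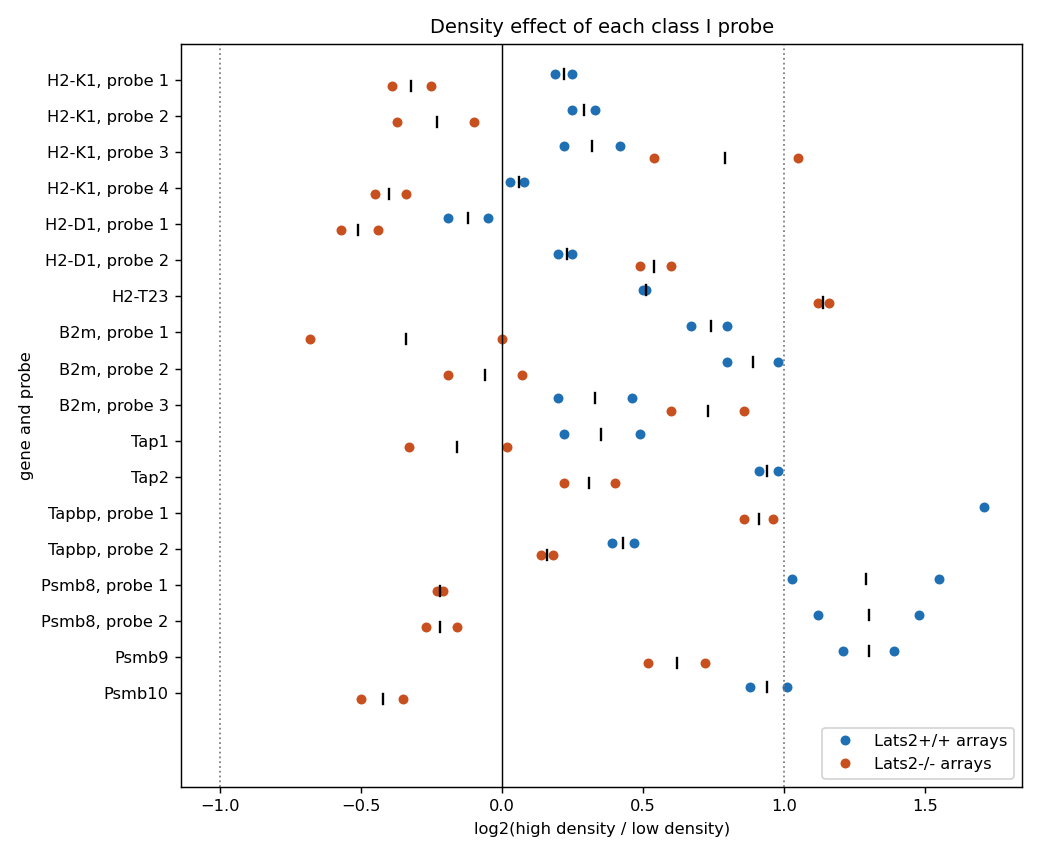
Log2 ratio of high to low density for each of the 18 class I probes (rows). Points are single arrays, blue for Lats2+/+ and orange for Lats2-/-, ticks are means of both arrays, and dotted lines mark 2-fold; the Psmb8 and Psmb10 points lie above 0 on the WT arrays and below 0 on the KO arrays, and H2-T23 lies farther from 0 in KO.

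The density effects of the genotypes were then subtracted (KO minus WT). Among the 10 genes, 8 lay below 0, with a median of -0.58 against 0.02 over all tested probes. Over the 6 genes detected in every group, 4 lay below and 2 above 0, with a median of -0.4; the undetected WT side of the other 4 sets their direction in part. The median over all 10 was -1.23 with the software's processed signals or the series matrix ratio, and -0.92 with a smaller background offset. Psmb8 and Psmb10 were called lower and none higher. Psmb10 came to -1.37 ± 0.01. The WT effect of Psmb8 is a lower bound, so its difference is given as a bound too, at most -1.45 and -1.44 by its probes. Such bounds use the mean of both dye orientations. A single orientation gave -1.26 for Psmb8 (A_51_P345366) and -0.49 for Psmb9. Of all tested probes, 4.22% were called lower and 3.78% higher. B2m came to -0.95 ± 0.06, to -1.08 ± 0.39 by A_51_P129006 and to 0.4 by A_52_P105594, which lay on the other side of 0. H2-K1 (-0.52, but 0.47 by A_52_P474242) and Tapbp (-0.27) were also below 0 by the probes that represent them, as were the bounds of Psmb9 (at most -0.68), Tap2 (at most -0.63) and Tap1 (at most -0.51). H2-T23 (0.64) was above it, and the H2-D1 probes lay on opposite sides (0.32 and -0.39). With 1 replicate a genotype this difference was not tested.

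A density effect shared by both genotypes could be tested, with 1 value a genotype. By limma with Benjamini-Hochberg adjustment, 0 of 21546 probes passed an adjusted p of 0.05 (0.0% called), and 6391 had an unadjusted p under 0.05. Psmb9 had the smallest adjusted p among the members (0.104), with a mean log2 ratio over the genotypes of 0.96 ± 0.23 (SE) and a ratio above 0 on 4 of 4 arrays. H2-T23 came to 0.82 ± 0.22 with an adjusted p of 0.119 and Tap2 to 0.63 ± 0.22 with 0.167, both higher on 4 of 4 arrays. These 3 were the members with an unadjusted p under 0.05 at their brightest probe. The WT values of Psmb9 and Tap2 are bounds, and both entered the test through the sides where they were detected. With signal required in every channel, 6 members remained, 1 with an unadjusted p under 0.05, and their smallest adjusted p by limma was 0.106. With a single residual degree of freedom, the test rests largely on the spread shared over all probes.

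Psmb9, Tap1, Psmb8 and Tap2 lie within 33.1 kb of each other in the class II region (mm8 chr17:33792517-33825639). Their 5 probes were not well above background on either array in WT at low density and were so on both arrays in the other 3 groups. This pattern was found for 5 of the 18 member probes (27.8%) and for 262 of all 41174 probes (0.636%). The pattern was read from these same 5 probes, 2 of them neighbouring probes of Psmb8, so the shares describe it and are no test. Within 100 kb on either side lay 16 probes of other genes. H2-DMa and H2-DMb1, which load class II molecules with peptide, lay beside them. H2-DMa, not well above background in WT at low density, was at least 1.96-fold higher there at high density, and gave 0.07 in KO. H2-DMb1 gave 1.15 in WT, where only 1 array was well above background at low density, and 0.01 in KO. Brd2, a bromodomain gene beyond them, gave -0.28 in WT and 0.53 in KO. In no group did the class II chains H2-Aa and H2-Ab1 stand well above background on both arrays.

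**Figure D3:**
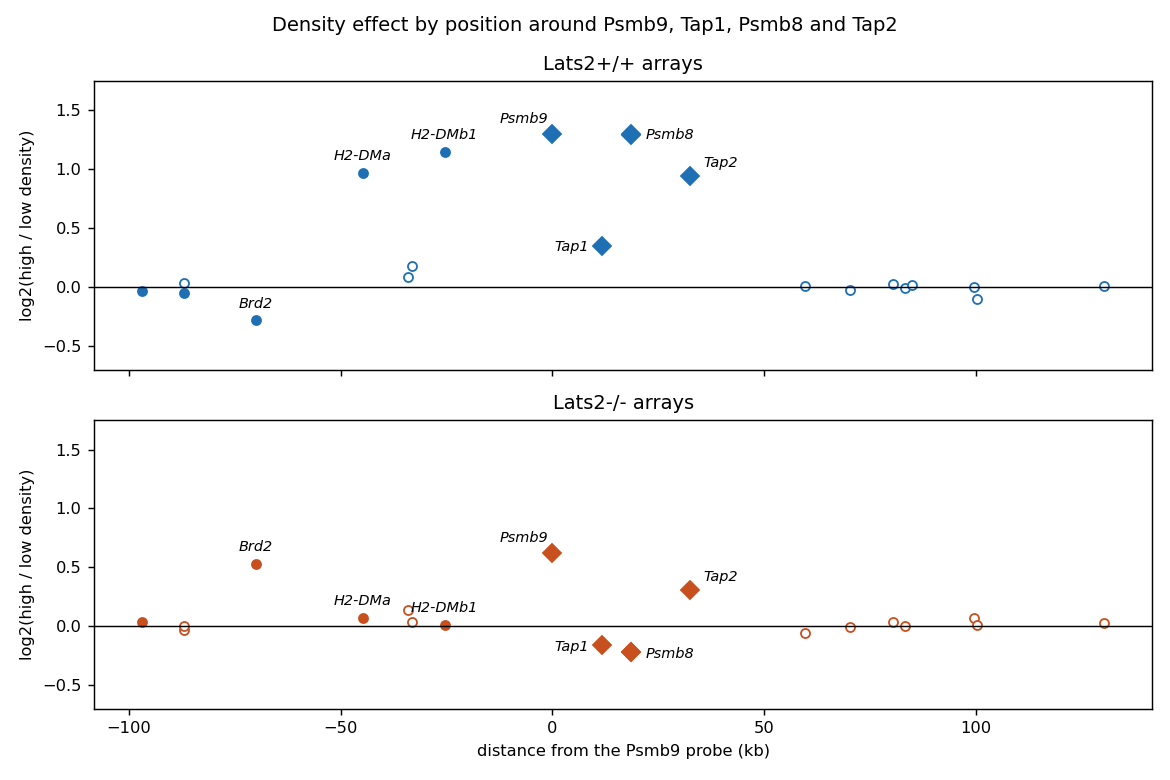
Log2 ratio of high to low density (y axis) against distance from the Psmb9 probe in kb (x axis) for the 21 probes of the surrounding region (1 has no KO value), Lats2+/+ above and Lats2-/- below. Diamonds are class I genes, circles other genes, open symbols probes that stood well above background on fewer than 2 arrays at each density; in WT, Psmb9, Psmb8, Tap2, H2-DMa and H2-DMb1 lie between 0.94 and 1.3 and Tap1 at 0.35, with values drawn as measured where the low density side was not well above background.

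Signals of the genotypes were compared within each dye after scaling between arrays. At low density the log2 differences of all 10 genes lay above 0 (higher in KO), Tapbp within its spread, with a median of 0.66 against 0.04 over all tested probes. Over the 6 genes detected in both genotypes, all were above 0, with a median of 0.83. Tap1, Tap2, Psmb8 and Psmb9 were detected in KO alone here, which fixed their direction. With processed signals the median over all 10 was 1.4. H2-K1 and B2m were called higher and none lower. Of all tested probes, 6.87% were called higher and 7.05% lower. H2-K1 was 2.83-fold higher (1.5 ± 0.07, SD of the 2 dyes; 0.68 ± 0.12 by A_52_P474242) and B2m 2.24-fold higher (1.17 ± 0.08). The third B2m probe, A_52_P105594, differed from this, at -0.16 ± 0.09, and as a mean over its probes B2m came to 0.85 and was not called. H2-T23 (0.85 ± 0.1), Psmb10 (0.81 ± 0.04) and H2-D1 (0.62 ± 0.06) were also higher in both dyes. The 4 genes undetected in WT at low density were higher in KO by at least 1.6-fold (Tap1), 1.56-fold (Tap2), 1.45-fold (Psmb9) and 1.41-fold (Psmb8). For Psmb8 this was within the spread of the dyes, which gave log2 differences of 0.17 and 0.94 at A_51_P345366. The Tapbp probe measured in both dyes came to 0.21 ± 0.29, a difference within its spread.

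At high density the difference was smaller for most members, with 6 genes above and 4 below 0 and a median of 0.09. H2-T23 was called higher, at 2.8-fold (1.49 ± 0.14), and none was called lower. Psmb8 fell just short of a lower call. Some alternatives called it lower, and its values over all of them ran from -2.38 to -0.77. Of all tested probes, 6.42% were called higher and 6.61% lower. H2-K1 gave 0.98 ± 0.21, and 0.69 to 1.15 by its other probes. H2-D1 gave 0.93 ± 0.02 by the brighter probe and 0.25 ± 0.13 by the other. In contrast, Psmb8 (-0.96 ± 0.19 and -0.94 ± 0.13) and Psmb10 (-0.55 ± 0.05) were lower in KO in both dyes. B2m (0.21 ± 0.02) and Tap1 (0.17 ± 0.15) were above 0 in both dyes, Psmb9 (-0.14 ± 0.05) was below, and Tap2 (0.01 ± 0.21) and Tapbp (-0.07 ± 0.26) differed by less than their spread.

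**Figure D4:**
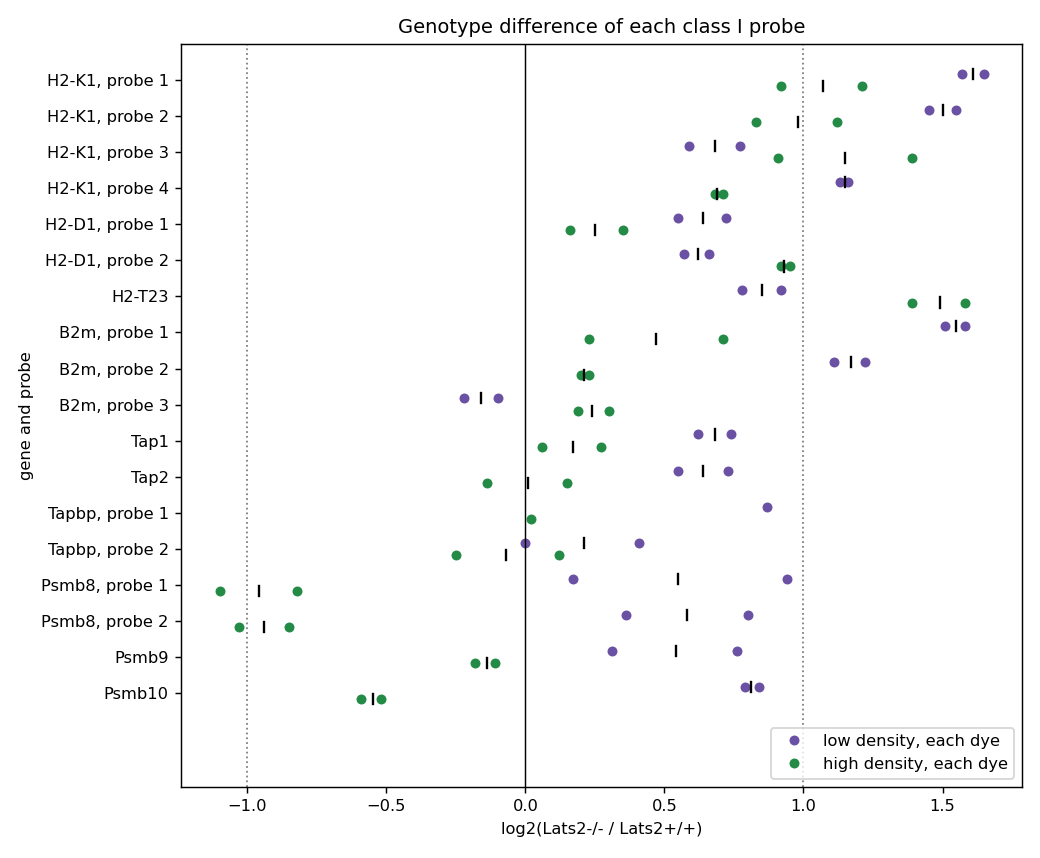
Log2 ratio of Lats2-/- to Lats2+/+ signal for each of the 18 class I probes (rows) at low density (purple) and high density (green). Points are the 2 dyes, ticks their mean and dotted lines 2-fold; at low density 17 of the 18 probes have points at or above 0, and at high density the Psmb8 and Psmb10 points lie below 0.

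Other genes of the pathway were counted in the same way. Of 25 other class I heavy chain genes listed, 17 were on the array. In WT, 13 were tested and 3 were called higher with density, and in KO 4 of 14 were. Over all tested probes the shares called higher were 7.61% in WT and 5.9% in KO. Fcgrt, the neonatal Fc receptor, had the largest value in WT (2.94, and 1.62 in KO), and Cd1d1, which presents lipids, in KO (2.14, and 1.88 in WT). Cd1d1 was also higher in KO than in WT, by 2.19 at low and 2.44 at high density. None of the 6 peptide loading and trimming genes was called with density in either genotype. Among them, the peptidase gene Erap1 had the lowest difference of density effects (-1.05, called lower), from 0.66 in WT to -0.39 in KO. Of the 4 proteasome activator genes, Psme1 was called in WT (1.44, and 0.51 in KO), and Psme2, its partner in the ring, gave 0.38 and 0.39.

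Among 12 tested regulators of class I genes, 5 were called higher in WT and 2 in KO. For this and the next lists, the shares over all tested probes were 7.61% higher in WT, and 5.9% higher and 3.73% lower in KO. Irf1, an activator of class I promoters, gave 1.39 in WT and 0.4 in KO. Its dimmer probe, A_52_P175685, changed less, from 7.03 at low to 7.53 at high density in WT and from 7.11 to 7.09 in KO. Stat2 was the highest in WT (1.6), and Rfxank, a subunit of the factor that binds class II and class I promoters, in KO (1.33). Nlrc5 was not found by name on the array. Of the interferon receptor and kinase genes, only Socs1, a feedback inhibitor, was called among 9 tested, in both genotypes (1.59 in WT and 1.66 in KO). None of the 4 interferon genes listed stood well above background on both arrays at a density of either genotype. Other interferon-stimulated genes were called higher in 17 of 24 in WT (median 1.63) and in 7 of 21 in KO (median 0.83), with 1 lower. Of these, 15 genes in WT and 17 in KO were detected at both densities, with 9 and 5 called higher and medians of 1.33 and 0.71. The rest met the background limit at a single density, which sets their direction at least in part. Some genes called in WT were too dim to be tested in KO, so the WT and KO counts cover different genes. Igtp, an interferon-induced GTPase, had the largest ratio in WT (3.41, and 1.54 in KO), and Ifi47, another such GTPase, the lowest in KO (-1.53).

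**Figure D5:**
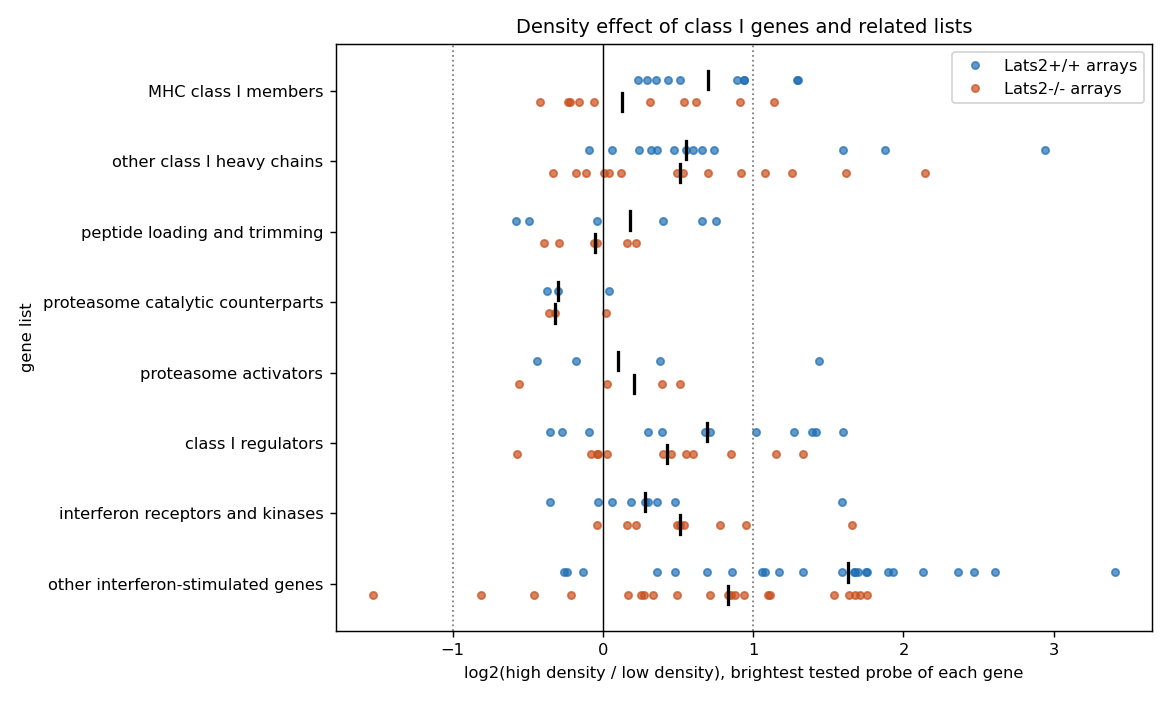
Log2 ratio of high to low density for each tested gene (points) of the 10 class I members and 7 related lists (rows), blue for Lats2+/+ and orange for Lats2-/-. Black ticks are list medians and dotted lines mark 2-fold; the WT median lies at 0.7 for the class I members, at -0.3 for the standard proteasome subunits and at 1.63 for the other interferon-stimulated genes (0.47 and 1.33 for the class I members and these genes where detected at both densities).

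Among the markers of other cell types, Lyz2 differed most between the groups. The summed signal of the 11 macrophage markers was 916 to 951 in WT at low density and 1010 to 1050 at high density, against 1920 to 2220 and 4830 to 5900 in KO. Cd68 and Fcer1g were well above background in every group, Csf1r in all but WT at high density and Lyz2 in all but WT at low density, while the other 7, Adgre1, Ptprc and Itgam among them, were so in none. Most of the higher sum in KO was at Lyz2, whose brighter probe read 10.2 and 10.37 in KO at low density and 11.97 and 12.29 at high density. Cd68 did not follow, with means of 6.61 and 6.48 in KO at low and high density against 6.72 and 6.86 in WT. Fcer1g gave 6.92 and 7.4 in KO against 6.9 and 7.26 in WT. Csf1r was high on KO replicate 2 alone (7.81 at low density, against 6.43 on replicate 1). The part of other cells in the class I values was not tested, and in these bulk samples more cells of a type and more RNA per cell cannot be told apart. At most 1 of 9 lymphocyte and natural killer cell markers and 1 of 7 endothelial markers was well above background in a group. Of 5 epithelial markers, Krt14 was so in every group and Krt18 in WT at low density.

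Over the 4 contrasts (density effect in each genotype and genotype difference at each density), the genes whose values lay closest to the median of the members were Fuk, Prkce, Rutbc1, Cpt1c and 0610009B22Rik. Their Euclidean distances on the log2 scale were 0.056 to 0.117, among 12947 genes well above background in all 8 channels. Fuk, for instance, gave 0.67 in WT and 0.09 in KO with density, and 0.64 and 0.06 between the genotypes at low and high density.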

How the data were processed

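Per the file headers, spots were read by the authors in Agilent Feature Extraction, version 10.5.1.1. The deposited scanner files hold raw spot and local background intensity for both dyes, processed intensity, quality flags and a log10 ratio of Cy5 to Cy3. The deposited series matrix holds this log10 ratio, rounded, turned to high over low density. Gene names and positions are those of the array annotation (mm8). Where source names write LAT2, the genotype field (Lats2) was used.

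Log2 ratios were computed here from the deposited raw spot intensity, using limma 3.58.1 in R 4.3.3: normexp with offset 50, loess within arrays, flagged features left out, features of a probe averaged, and the ratios of high to low density averaged over both dye orientations. Ratios of dim probes shrink with this offset. Single channels were scaled between arrays (Aquantile) for the levels and the genotype differences, made within each dye. A probe was tested when well above background on both arrays at 1 side or more. Where it was not so on either array of a side, the fold is a lower bound, against the higher of its own signal and the lowest signal well above background. The bound uses the mean of both arrays, with no allowance for their spread. The common density effect was tested with lmFit and eBayes on 1 value a genotype and adjusted over all tested probes. Counting and promoter searches used Python 3.11.15, numpy 2.4.6 and pandas 2.3.3, and figures matplotlib 3.10.9. Precision is limited by how few arrays there are. The size rule and the limma test were tested on simulated data.

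The members, the gene lists and the rules were chosen with earlier results of these data known. Named were all members and Psmb5, Psmb6, Psmb7, Psme1, Psme2, Nlrc5, Irf1 and Lats2 (a further gene of this rule is not reported here); from other lists, some of the genes with the largest or smallest log2 ratio in a contrast that reached 2-fold; and the 5 genes closest to the members. The cell type markers, Brd2 and the class II genes were named after their values were seen. Alternatives were processed signals, offset 16, median centring, other filters on dim probes, the mean over probes, a 1.4-fold threshold, other scaling between arrays, the series matrix and leaving out each array.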

Additional observations from a re-analysis of the deposited data

Results flagged for a closer look

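The density effect ran one way on both WT arrays and the other way on both KO arrays at 7 probes of 4 genes. The share of all tested probes that did so is not given here, so this count has no comparison. The difference (KO minus WT) was -1.51 and -1.52 as measured for Psmb8 (A_51_P345366 and A_51_P345367), whose signal in WT at low density was not well above background, which bounds these differences at -1.45 and -1.44 or below. It was -1.37 for Psmb10 (A_52_P570266) and -1.08 for B2m (A_51_P129006). It was -0.54, -0.52 and -0.45 for H2-K1 (A_51_P190499, A_51_P198434 and A_52_P50496). These differences were not tested, since each genotype has 1 replicate. For B2m, KO replicate 1 was at 0.0 after rounding, and its brightest probe had opposite signs on the KO arrays. Other probes of the same genes lay on the other side, at 0.47 for H2-K1 (A_52_P474242) and 0.4 for B2m (A_52_P105594).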

How the results depend on the processing

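The 6 members detected on both sides kept their sign in the WT density effect and, apart from Tapbp at 0.0 without KO or WT replicate 1, in the low density genotype difference under the alternatives run, while the other 4 had theirs fixed by the filter. Elsewhere the sign turned for B2m (KO, 0.11 at most) and Tap1 (KO, 0.02 at most), for H2-D1 in the difference of density effects (-0.03 as a mean over probes), and for Tap2, Tapbp and Psmb9 between genotypes at high density. Sizes that rest on the undetected WT side moved most: over the alternatives the difference of density effects ran from -4.93 to -1.26 for Psmb8, -3.31 to -0.49 for Psmb9, -2.49 to -0.47 for Tap1 and -2.25 to -0.58 for Tap2. With processed signals there were 4 higher in WT, 2 in KO, 6 lower in the difference, 6 higher at low density, and 2 higher and 1 lower at high density, and in the same order 13.3%, 11.5%, 7.48%, 14.2%, 13.1% and 11.8% of all tested probes were so called. The series matrix ratio gave 4, 2 and 6 for the first 3 of these. Offset 16 gave 4 lower in the difference, 4 higher at low density, and 2 higher and 1 lower at high density, beside 5.35%, 9.24%, 8.36% and 8.63% of all tested probes. With median centring, H2-T23 came to 0.76 against 1.14 in KO. This setting gave 0 higher in KO and 1 lower (Psmb8) at high density, beside 4.34% and 6.59% of all tested probes. It also turned the split over all called probes from 57.1% to 43.9% higher in WT and from 61.3% to 40.3% in KO. Requiring signal well above background in every channel left 6 genes, with 0 higher in WT and 1 lower in the difference. Psmb8 and Psmb9 drop out by construction, and 7.48% and 3.96% of all tested probes were so called. The mean over probes gave 1 higher at low density, H2-K1, with B2m at 0.85. Of single probes, 6.87% were called higher there. The 1.4-fold threshold gave 6 higher in WT, 4 in KO, 1 higher and 7 lower in the difference, 9 higher at low density, and 3 higher and 2 lower at high density, beside, in the same order, 19.9%, 18.7%, 14.2%, 14.2%, 20.4%, 19.3% and 18.2% of all tested probes. No scaling between arrays moved the median of all probes to 0.27 and gave 4 higher at low and 3 at high density, beside 11.3% and 10.6% of all tested probes. Quantile scaling gave 2 higher at high density, beside 6.39%. Leaving out each array in turn gave 1 to 2 higher and 0 to 1 lower at high density. Over all tested probes, 5.84% to 7.54% were called higher and 6.25% to 7.44% lower. The second higher call came without KO replicate 1 or WT replicate 1. The lower call (Psmb8) came without KO replicate 2 or WT replicate 2. In WT, leaving out an array gave 2 to 3 higher, beside 7.28% to 7.61% of all tested probes. The third was Psmb10 (1.01) without WT replicate 1 and Tapbp (1.71 against 0.43, by another probe) without WT replicate 2. Keeping outlier flags, chosen after seeing the data, gave a WT median of 0.92 against 0.7. In the common test, the alternatives gave 0 to 350 calls over all probes and none among the members, whose smallest adjusted p by limma ran from 0.0824 to 0.215. Where no other reason is given, the cause was not tested. No paired analysis was possible because the replicate numbers mark the dye orientation of 1 sample a genotype, not separate samples.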
